A study of Mus musculus with 3 samples.

Results

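Bins of the mouse genome in which the DamID profile labelled Dam-Lamin A was higher than that labelled Dam-Lap2b are described here. A bin is a 10 kb piece of an autosome with at least 10 fragments between GATC sites. The value of a bin is the mean log2 value of its fragments, and a bin belonged to the set when its mean in the Lamin A-labelled profile was higher than its mean in the Lap2b-labelled profile by 1 or more, that is, 2-fold. This held for 10524 of 239157 tested bins (4.4%), or 105.24 Mb of 2391.57 Mb. The levels of both profiles and their difference chose the set, so they are given as a description, with no test. For scale, 16190 tested bins (6.77%) differed by 1 or more in the opposite direction. Which direction was the more frequent depended on the centring of the profiles: with the median of each profile subtracted, 16536 bins (6.91%) were higher in the Lamin A-labelled profile and 9670 (4.04%) in the other. With reads summed per bin the counts were 17709 and 21141. The set and the opposite kind are therefore compared below in their placement and not in their number. They also differed in their fragments, with medians of 25 fragments per bin in the set and 19 in the opposite kind. The median over bins of the median fragment length was 270 and 387 bp. In 5 parts of the tested bins, from the fewest to the most fragments, the opposite kind fell from 19.8% to 0.301% of bins. The set made up 3.59% and 4.79% of these 2 parts. The part of fragment number in their placement was not tested.

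The cells were embryonic fibroblasts from wild-type C57BL/6 mice. Murine retroviruses had brought in Dam fused to Lamin A, Dam fused to Lap2b (groups Dam-Lamin A and Dam-Lap2b), or unfused Dam (group Dam Only), with 1 sample of each. The promoter of the cassette, the number of embryos and their age are not given in the sources used here. For each fusion a log2 profile and a list of lamina-associated domains (LADs) were analysed, and no separate file of the Dam-only sample was analysed here. With 1 sample of each fusion, no difference between fusions has a replicate check and no p-value was computed. Bins and fragments come from 1 library of each fusion and do not replicate it.

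Dam is a bacterial enzyme that methylates the adenine of GATC. Fused to a protein of the nuclear periphery, it marks the DNA that comes near that protein, and the methylated fragments are amplified and sequenced. LADs are long, mostly gene-poor stretches of chromatin at the nuclear lamina. Lamin A forms filaments in the lamina, and part of it is also found in the nuclear interior. Lap2b (lamina-associated polypeptide 2 beta) is anchored in the inner nuclear membrane and binds lamins. Dam alone marks accessible chromatin most readily and serves as the usual control.

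The labels of profiles and lists went together crosswise. Over the 14760 tested bins in the Lamin A-labelled list alone, the like-labelled profile averaged -0.03 ± 0.71 (SD over bins) and the other 0.45 ± 0.47. Over the 6229 bins in the Lap2b-labelled list alone, the Lamin A-labelled profile averaged 0.38 ± 0.61 and the Lap2b-labelled profile 0.03 ± 0.68. Each profile was thus the lower of the 2 in bins specific to the like-labelled list. Which of the labels are right cannot be told from the files, so profiles and lists are named by their labels throughout, and the set is that of the Lamin A-labelled profile. Reads, libraries and levels called Dam-Lamin A or Dam-Lap2b are likewise named by the label of the profile. If the profiles were exchanged, the direction of every difference below would turn.

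Whole-number reads recovered from the log2 values came to at least 139425377 in the Dam-Lamin A library and 151510371 in the Dam-Lap2b library, and to 153448957 in the reference common to both profiles. They are lower bounds. In the difference of the log2 values the reads of the reference cancel, so the set rests on the reads of the fusions alone. A bin of the set held a median of 770 Dam-Lamin A reads and 259 Dam-Lap2b reads over a median of 25 fragments, and the other tested bins held 456 and 570 reads over 24 fragments.

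Most of the set lay far outside the listed LADs. Of the 10524 bins, 7026 (66.8%, 95% Clopper-Pearson interval 65.9 to 67.7%) lay in neither list and 2657 (25.2%, 24.4 to 26.1%) in both lists, by the middle of the bin. A further 800 (7.60%, 7.10 to 8.12%) lay in the Lap2b-labelled list alone and 41 (0.39%, 0.28 to 0.53%) in the Lamin A-labelled list alone. These intervals treat bins as independent draws, though bins of the set cluster, and they cover no spread between cell preparations. Of the other 228633 bins, 43.4% lay in neither list and 47.8% in both. Of the bins higher in the Lap2b-labelled profile, 57.7% lay in neither list and 25.5% in both, so these shares were not far from those of the set. As shares of the tested bins there, the opposite kind made up 8.79% in neither list and 3.69% in both. The share of the set in LADs depended on how fragments were averaged: with a mean weighted by fragment length, 9.81% of the set lay in both lists and 82.6% in neither.

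Read the other way, 6.61% of the tested bins in neither list belonged to the set and 2.37% of those in both lists, against 4.4% of all. The list-specific bins stood furthest apart. In the Lap2b-labelled list alone, 12.8% of bins belonged to the set and 0.594% differed by 1 or more the other way. In the Lamin A-labelled list alone, 0.278% belonged to the set and 18.2% differed the other way. The share in the set was larger for the former class than for the latter on 19 of 19 autosomes. How the lists were made is not given in the sources used here, and if they were called from these profiles they are not independent of the rule.

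**Figure D1:**
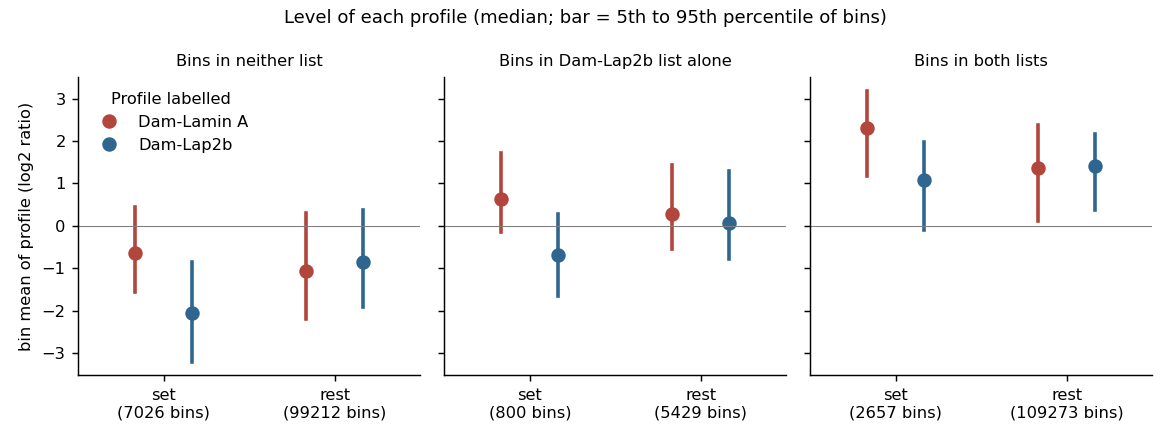
Bin means of the Lamin A- and Lap2b-labelled profiles (log2 ratio to the reference) in the set and in the other tested bins, split by LAD list; points are medians and bars run from the 5th to the 95th percentile of bins. Relative to the reference, the set in neither list is set apart mainly by a low Dam-Lap2b level (median -2.05 against -0.86). In both lists it is set apart mainly by a high Dam-Lamin A level (2.32 against 1.35).

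Levels followed the LAD lists, in the set as in the other tested bins, so the set is set against the other bins of each list class. In neither list, the bins of the set averaged -0.61 ± 0.64 in the Lamin A-labelled profile and -2.04 ± 0.75 in the Lap2b-labelled profile. The other bins in neither list averaged -1.02 ± 0.77 and -0.82 ± 0.70. Both profiles were at or below 0 in 84.6% of these bins of the set. Relative to the reference, the difference from the other bins came more from a deeper depletion in the Dam-Lap2b profile than from a rise in the other. The reference itself had more reads in the set there (median 1099 against 758). In fusion reads, Dam-Lamin A was higher (645 against 354) and Dam-Lap2b lower (203 against 441). In both lists, the bins of the set averaged 2.26 ± 0.63 and 1.03 ± 0.65, and the other bins 1.31 ± 0.68 and 1.36 ± 0.54. Here the Lamin A-labelled profile was raised more than the Lap2b-labelled profile was lowered. The 800 bins in the Lap2b-labelled list alone lay between, at 0.70 ± 0.57 and -0.69 ± 0.63.

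The sign of the levels followed the lists. Both profiles were at or below 0 in 6023 bins of the set (57.2%) and above 0 in 2674 (25.4%). In 1827 bins (17.4%) the Lamin A-labelled profile was above 0 and the other was not, which held for 2.28% of the other tested bins. The rule favours this pattern, and its mirror image held for 29.5% of the bins of the opposite kind. Of the 800 bins of the set in the Lap2b-labelled list alone, 626 (78.3%) had only the Lamin A-labelled profile above 0. Over the whole set the Lamin A-labelled profile averaged 0.22 ± 1.39 and the Lap2b-labelled profile -1.15 ± 1.504. The former mean lies between the levels inside and outside LADs, and its sign turned under 4 of 12 alternatives of processing.

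Reads per bin were compared in the same way. In neither list a bin of the set had a median of 645 Dam-Lamin A, 203 Dam-Lap2b and 1099 reference reads, against 354, 441 and 758 in the other bins in neither list. In both lists the medians were 1254, 621 and 259, against 593, 686 and 232. The reference, presumed to be Dam alone, was therefore higher in the set than in the other bins outside LADs, and differed less inside them. When the tested bins were ordered by reference reads and cut into 5 parts of equal number, the share in the set among bins in neither list was 5.37%, 3.396%, 3.67%, 4.78% and 9.61% from the fewest to the most reads. Among bins in both lists it was 1.81%, 2.48%, 2.65%, 4.04% and 10.7%. The last of these shares rests on few bins in both lists. That part began at 868 reference reads, and the 95th percentile of the tested bins in both lists was 516. The share was thus highest where the reference had the most reads, inside and outside LADs alike, but outside them it did not rise at every step. Pooled over list classes, this was not particular to the set. Among all tested bins in the part with the most reads, the opposite kind was also most frequent, at 9.58% against 9.60% for the set. In both lists the opposite kind instead had fewer reference reads than all tested bins there, with medians of 185 and 233. In neither list it had more, with 832.5 and 774. The part of reference reads in the result was not tested.

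The size of the difference was modest in most of the set. It averaged 1.37 ± 0.37, with a median of 1.26, and lay between 1 and 1.5 in 7733 bins. A difference of 2 or more was seen in 743 bins (7.06%) and of 3 or more in 47. Just below the threshold, 10010 tested bins lay between 0.75 and 1. The 3 bins just inside the threshold had differences of 1.000002, 1.000016 and 1.000064, and the 3 just outside had 0.999984, 0.999971 and 0.999895. The standard error of a bin's mean difference over its fragments had a median of 0.32 in the set, so bins near the threshold are not separated by their measurement.

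To see how far the difference held in fragments that had not chosen the bin, bins were chosen from odd-numbered fragments and measured in even-numbered ones. The 11723 bins chosen with a mean of 1.38 in the odd-numbered fragments had 1.18 ± 0.55 in the even-numbered ones. The difference there was above 0 in 99.1% of these bins and 1 or more in 61.4%, against 43.4% and 1.99% of the 227434 bins not chosen. The even-numbered difference was 1.24 for chosen bins in neither list and 1.03 for those in both lists. Neighbouring fragments come from the same libraries, so this covers counting error within them and not the spread between cell preparations.

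Within bins, the fragments mostly pointed one way, which the rule favours, since their mean difference chose the bin. The Lamin A-labelled profile was the higher in 83.4% of the 268120 fragments in the set and in 51.9% of the fragments in the other tested bins. No Dam-Lap2b read was recovered in 23.2% of the fragments in the set (53.9% of those under 100 bp) and in 10.3% of the others. No Dam-Lamin A read was recovered in 8.73% and 12.97%. The values of such fragments depend on the 1 read added. The relation to fragment length differed between list classes. In the set in both lists the difference fell with length, from 1.54 in fragments under 100 bp to 1.05 at 300 to 599 bp and 0.34 at 1200 bp or longer. In the set in neither list it was 1.21, 1.249 and 2.37 at these lengths. Among the other tested bins, the difference in both lists was 0.26 under 100 bp, 0.31 at 100 to 299 bp, 0.08 at 300 to 599 bp and -1.18 at 1200 bp or longer. In neither list it went from 0.10 under 100 bp to -0.60 at 1200 bp or longer. In the set outside LADs the longest fragments thus had the largest difference, and in the other bins outside LADs they had a negative one. In the set inside LADs the shortest fragments had the largest.

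Bins of the set were short and scattered, but they were not spread evenly. They formed 7500 runs of adjacent bins, of which 5735 (76.5%) were a single bin of 10 kb and 1108 were 20 kb long. Runs of at least 50 kb numbered 134 and held 848 bins (8.06% of the set). Runs of at least 100 kb numbered 11, and the longest had 150 kb. Runs in neither list were the longer ones: 53.0% of the bins there lay in runs of 2 or more, against 24.4% in both lists, where the longest run had 70 kb. Bins higher in the Lap2b-labelled profile were more solitary, with 32.6% in runs of 2 or more against 45.5% in the set, and their longest run had 90 kb.

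Bins of the set recurred nearby over megabases. Of the tested bins 10 kb away from a bin of the set, 28.8% belonged to the set, and of those 100 kb away 19.99%. At 1000 kb the share was 14.3% and at 5000 kb 10.6%, still above the 4.4% of all tested bins. Bins of the opposite kind made up 0.56% at 10 kb and 3.499% at 5000 kb, below their 6.77% of all tested bins. In windows of 1 Mb, 908 of 2402 windows (37.8%) held no bin of the set, and the 240 windows with the most held 55.5% of it. For the bins higher in the Lap2b-labelled profile, the 240 windows with the most of them held 30.2%.

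The windows with the most bins of the set, named after their values were seen, were a neighbouring pair. On chromosome 10, 60 of 100 tested bins belonged to the set from 80000001 to 81000000 (mm9) and 59 of 100 from 79000001 to 80000000. No bin of the opposite kind lay in either window, and no bin of either lay in both lists. The Lamin A- and Lap2b-labelled profiles averaged -1.24 and -2.56 over all bins of the former window. The next, on chromosome 4 from 153000001 to 154000000, held 53 of 100 bins. It differed in level, with means of 0.50 and -0.60 and 31.0% of its bins in both lists.

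**Figure D2:**
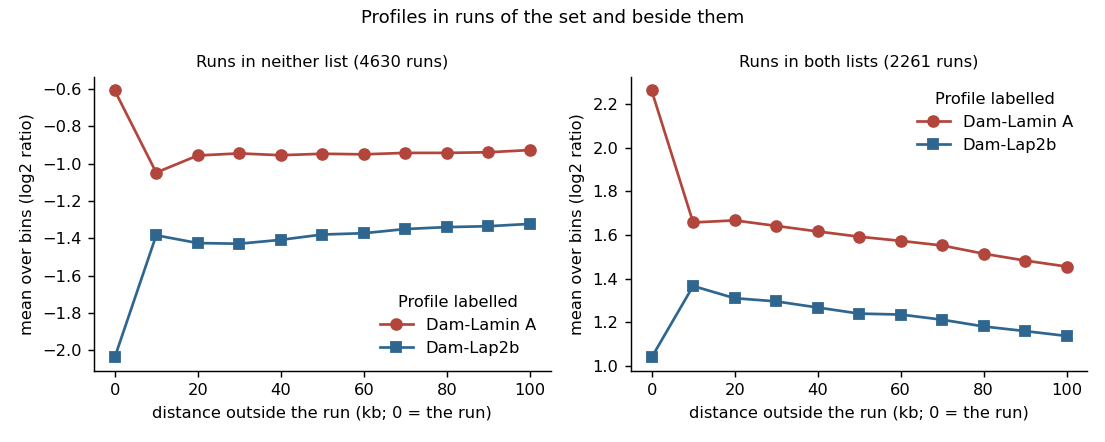
Mean of the Lamin A- and Lap2b-labelled profiles (log2 ratio) in runs of the set, drawn at 0 kb, and in tested bins 10 to 100 kb outside them, for 4630 runs wholly in neither list and 2261 wholly in both lists. Only the bins 10 kb outside are below the threshold by the rule. At 100 kb, 18.9% of bins (neither list) and 10.6% (both lists) belong to the set again. The Lamin A-labelled profile stays the higher on average out to 100 kb in both panels. Without bins of the set, the difference at 100 kb is 0.14 and 0.20.

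Beside the runs the difference was much smaller. In neither list it was 1.43 in the runs, 0.34 in the bins 10 kb outside, which by the rule could not reach 1, and 0.40 at 100 kb, where 18.9% of the bins belonged to the set again. In both lists it was 1.22, 0.29 and 0.32, with 10.6% of the bins at 100 kb in the set. Without the bins of the set, an alternative added after the values had been seen, the difference at 100 kb was 0.14 in neither list and 0.20 in both. All bins outside the set averaged -0.20 in neither list and -0.05 in both. In neither list the level of the Lap2b-labelled profile changed more at the run than that of the other, from -1.38 beside it to -2.04 in it, while the Lamin A-labelled profile went from -1.05 to -0.61. In both lists the Lamin A-labelled profile changed more, from 1.66 to 2.26, while the other went from 1.37 to 1.04.

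All 11 runs of at least 100 kb lay in neither list. The 5 described here are the longest, where 2 of 3 runs of 110 kb were taken for their larger mean difference. The run left out was chromosome 5, 120570001 to 120680000 (mean difference 1.71). The longest covered chromosome 6, 114440001 to 114590000 (150 kb, 256 fragments), and its centre lay 1859 kb from the nearest edge of the Lamin A-labelled list and 1857 kb from that of the Lap2b-labelled list. In its 15 bins the Lamin A-labelled profile ran from -1.51 to -0.72 and the Lap2b-labelled profile from -3.35 to -2.37. In the 20 bins within 100 kb on either side they ran from -2.04 to 0.28 and from -1.75 to -0.58. The Lamin A-labelled profile in the run lay within its range outside it, while the ranges of the Lap2b-labelled profile did not overlap. The run had 3959 recovered Dam-Lamin A reads, 944 Dam-Lap2b reads and 10054 reference reads.

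The other 4 runs were chromosome 17, 56500001 to 56620000 (mean difference 1.73), chromosome 5, 125460001 to 125580000 (1.57), chromosome 8, 124750001 to 124860000 (2.03), and chromosome 4, 137220001 to 137330000 (1.90). In them the Lap2b-labelled profile averaged -2.81, -2.74, -3.15 and -2.41. The Lamin A-labelled profile averaged -1.08, -1.17, -1.11 and -0.51. In these 4 regions single bins in the flanks reached differences of 1.64 to 2.59, so other bins of the set lay close by, and the ranges of both profiles overlapped between run and flanks.

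**Figure D3:**
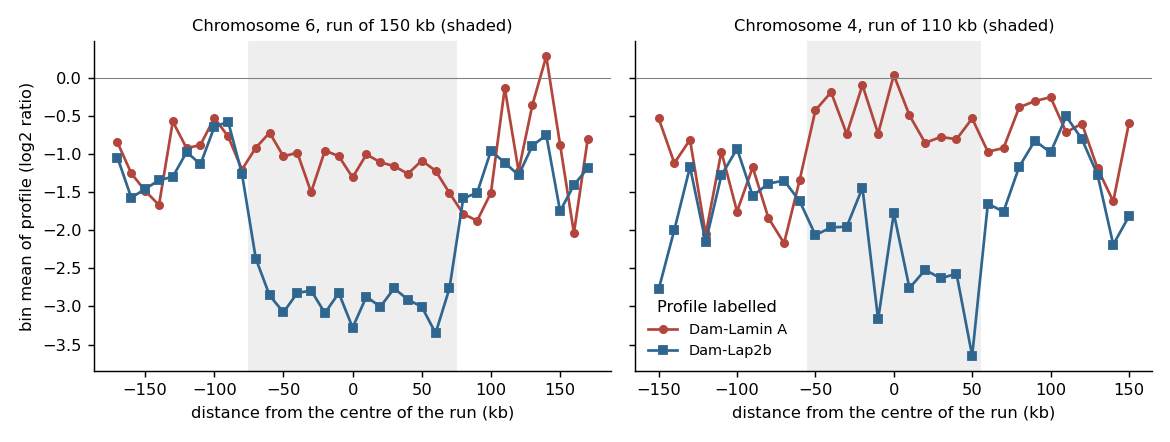
Bin means of the Lamin A- and Lap2b-labelled profiles (log2 ratio) across the longest run of the set, 150 kb on chromosome 6, and the run of 110 kb on chromosome 4, with 100 kb on either side; shading marks the run and distance is from its centre. On chromosome 6 the Dam-Lap2b level drops to between -3.35 and -2.37 in the run, and the Dam-Lamin A level there stays within its range outside.

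The 5 bins with the largest difference also lay in neither list. The largest was chromosome 11, 69750001 to 69760000, with means of -0.72 and -5.31 and a difference of 4.59 ± 0.49 (standard error over 12 fragments). All 12 fragments were higher in the Lamin A-labelled profile, by 2.26 to 7.53. In 3 of them no Dam-Lap2b read was recovered, so that their values depend on the 1 read added. The mean over the other 9 was 4.44 ± 0.56. Of its reads from the fusions 2574 were Dam-Lamin A and 59 Dam-Lap2b, a Dam-Lamin A share of 97.8% (95% Clopper-Pearson interval 97.1 to 98.3%). The bin was chosen for its difference, so the share is a description and its interval does not allow for that choice. The fragment with the most reads, 69754068 to 69754897 (830 bp), had 1371 Dam-Lamin A, 23 Dam-Lap2b and 2418 reference reads, and log2 values of -0.73 and -6.63. Even this bin was below the reference in the Lamin A-labelled profile.

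The next 4 were chromosome 10, 80870001 to 80880000 (difference 4.17), chromosome 8, 122930001 to 122940000 (4.07), chromosome 5, 140230001 to 140240000 (4.03), and chromosome 5, 124570001 to 124580000 (3.86). Every fragment in these bins was higher in the Lamin A-labelled profile. The Dam-Lamin A share of fusion reads ran from 91.6% (89.6 to 93.3%) in the bin on chromosome 10 to 98.2% (97.2 to 98.9%) in the bin on chromosome 5 at 140230001. These shares too are of bins chosen for their difference. Of these 5 bins, the Lamin A-labelled profile was above 0 only in that bin, at 0.34. The bin on chromosome 10 was the nearest to a listed edge, at 248 kb.

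Autosomes differed in their share of the set by several fold. Chromosome 11, among the most gene-dense of the mouse, had the highest share with 1224 of 11864 tested bins (10.3%). Chromosome 5 followed with 1402 of 14766 (9.49%) and chromosome 4 with 984 of 15174 (6.48%). The lowest shares were 1.51% on chromosome 3, 1.61% on chromosome 13 and 1.85% on chromosome 14. Chromosome 11 held 11.6% of the set and 4.96% of the tested bins, and chromosome 5 held 13.3% and 6.17%.

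The chromosomes differed within each list class too. In neither list, 13.5% of tested bins on chromosome 11 and 13.2% on chromosome 5 belonged to the set, against 1.32% on chromosome 13 and 1.97% on chromosome 3. In both lists the share ran from 0.45% on chromosome 19 to 5.91% on chromosome 5. The share was higher in neither list than in both lists on 18 of 19 autosomes, the exception being chromosome 13 with 1.32% and 2.15%. The median difference over all tested bins was 0.12 on chromosome 11 and 0.10 on chromosome 5, and -0.17 on chromosome 13 and -0.16 on chromosome 3. It did not follow the order of the shares throughout: on chromosome 4 it was -0.08 and on chromosome 18, with 2.80% of its bins in the set, -0.02.

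**Figure D4:**
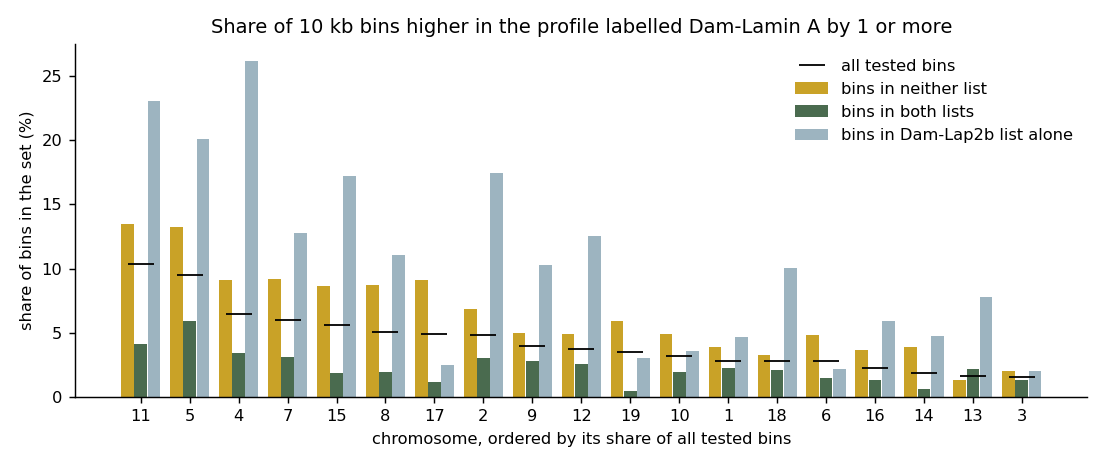
Share of tested 10 kb bins that belong to the set (%) on each autosome, for bins in neither LAD list, in both and in the Lap2b-labelled list alone, with a black dash for all tested bins. Chromosome 11 (10.3%) and chromosome 5 (9.49%) stand highest, and bins in neither list exceed bins in both on every autosome but chromosome 13.

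Along the chromosomes the set was weighted towards the distal end. Mouse autosomes have the centromere near the end where numbering starts. From the first to the last of 5 equal parts of the covered length, the share of tested bins in the set was 2.05%, 2.12%, 2.78%, 4.76% and 10.2%. Within 3 Mb of the last feature it was 10.5% (600 of 5693 bins), and within 3 Mb of the first 2.58% (146 of 5666 bins). Bins of the opposite kind went the other way, with 2.53% at the distal and 7.11% at the proximal end. All these shares were pooled over autosomes and list classes, which differ in their share of the set, and are not split here.

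Distance to the listed edges separated the set further. In neither list, the bins of the set lay a median of 984 kb from the nearest edge of the Lamin A-labelled list and 753 kb from the nearest edge of the Lap2b-labelled list. The other bins in neither list lay 397 and 415 kb away. The gap between LADs of the 2 lists combined was long where the set was frequent. In gaps of 1 Mb or longer 8.48% of tested bins belonged to the set, in gaps of 200 kb to 1 Mb 3.07% and in gaps under 50 kb 0.92%. The opposite kind took 6.59%, 12.4% and 20.6% of the bins in these gaps.

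At the edges themselves the set was not frequent. Outside LADs of the Lamin A-labelled list, 10.8% of bins more than 500 kb from an edge belonged to the set and 2.21% of those at 20 to 50 kb, with 3.45% within 20 kb. Within 20 kb outside an edge of the Lap2b-labelled list the share was 1.40%, and within 20 kb inside it was 3.49%. At those edges the opposite kind took 19.01% outside and 2.37% inside. The share thus stepped up on entering a LAD of the Lap2b-labelled list, while at edges of the Lamin A-labelled list it went from 3.45% outside to 1.67% inside. If the lists were called from these profiles, these steps are not independent of the rule. The same holds for all shares by distance to an edge or by depth in a LAD.

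**Figure D5:**
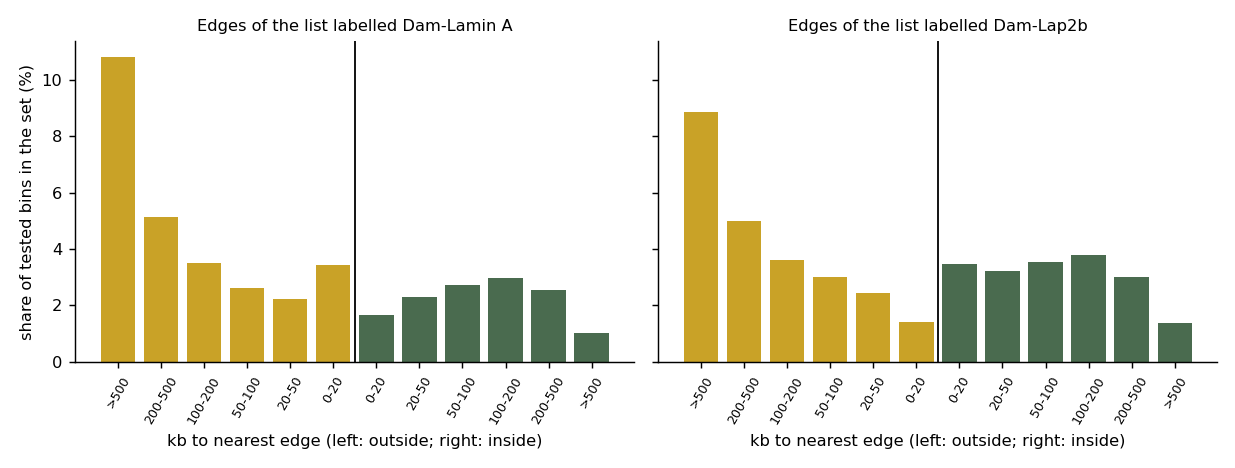
Share of tested bins in the set (%) by distance of the bin's middle to the nearest edge (kb), outside LADs to the left of the black line and inside to the right, for each list. The share is highest more than 500 kb outside LADs (10.8% and 8.87%) and lowest more than 500 kb inside them (1.02% and 1.36%).

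Inside LADs the share of the set by depth differed between the lists. In LADs of the Lamin A-labelled list it was 1.67% within 20 kb of the edge, 2.30% at 20 to 50 kb, 2.96% at 100 to 200 kb and 2.56% at 200 to 500 kb, and 1.02% beyond. In LADs of the Lap2b-labelled list it was 3.49% within 20 kb, 3.22% at 20 to 50 kb from the edge, 3.80% at 100 to 200 kb and 3.03% at 200 to 500 kb, and it was 1.36% beyond. Bins of the set in both lists lay a median of 173 kb from an edge of the Lamin A-labelled list, and the other bins in both lists 278 kb. From edges of the Lap2b-labelled list the medians were closer, 183 kb and 203 kb. Of the 2196 autosomal LADs in the Lap2b-labelled list, 906 (41.3%) held at least 1 bin of the set, and of the 2004 in the Lamin A-labelled list, 762 (38.0%). LADs of 1 Mb or longer held a bin of the set most often, 70.2% and 69.5%, but the share of their bins was the lowest of the lengths compared, 2.07% and 1.58%. In LADs of 200 to 500 kb it was 3.97% and 3.002%.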

How the data were processed

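The deposited profiles held log2 values for 6415372 fragments, at the same positions in both, and the deposited LAD lists held starts and ends without a score. Bowtie and mm9 are named in the submitters' processing notes. The counting, normalization and domain caller are not given in the sources used here. Fragments were assigned to bins by their middle. 357 autosomal bins with fewer than 10 fragments were left out, and the sex chromosomes were outside the rule.

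The values had the form of a constant (0.0846 and 0.0222) plus log2((fusion reads + 1)/(reference reads + 1)), and whole numbers fitting both values at the lowest common denominator (at most 5000) were found for 99.997% of fragments. They were used for depth, shares of reads and the alternative with summed reads, and common factors make them lower bounds. PCR reads are not independent molecules, so intervals of read shares cover counting error only. Intervals of bin shares treat bins as independent draws. The steps were run on simulated reads with planted differences larger than in most of the set, so bins near the threshold were not covered. Named regions are the 5 longest runs, the 5 largest differences, the 3 bins on each side of the threshold and the chromosomes with the 3 highest and 3 lowest shares. The 1 Mb windows, the run left out and further chromosomes were named in addition. The set and these choices were made with earlier results of these data known. Gene names and sequences were not used here, since the reference tables were of another build. Python 3.11.15, numpy 2.4.6, pandas 2.3.3 and scipy 1.17.1 were used.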

Additional observations from a re-analysis of the deposited data

Results flagged for a closer look

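Bins found only in the Lamin A-labelled list, set against bins found only in the Lap2b-labelled list, gave contrasts of opposite sign in the 2 profiles. It was -0.41 in the Lamin A-labelled profile and 0.41 in the Lap2b-labelled profile. The difference between the profiles was not tested, since each fusion had 1 sample.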

How the results depend on the processing

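No paired analysis was possible because each fusion had 1 sample. For 8 results, 14 alternatives gave 104 values. Shares counted as moved when they left the 95% interval of the reported share, the share of tested bins when it changed by over 1.5 times, and levels were set against the SD over bins. In every alternative most of the set lay in neither list (57.7 to 82.6%), the Lap2b-labelled profile averaged below 0 (-2.06 to -0.68) and 6.51 to 8.32% lay in the Lap2b-labelled list alone. In what follows, shares of the set are in the order both lists, neither list, runs of 2 or more bins. Bins of 5 kb put 6.94% of tested bins in the set, with shares of 33.4%, 58.9% and 40.6%, and bins of 20 kb 2.90%, with 16.6%, 74.99% and 50%. A difference of 0.75 put in 8.59%, with 34.6%, 57.7% and 50.6%, and one of 1.5 1.17%, with 9.92%, 82.0% and 33.3%. Subtracting the medians put in 6.91%, with 31.8%, 60.5% and 49.1%, and summed reads 7.40%, with 19.6%, 72.0% and 54.7%. At least 20 fragments gave 28.2%, 63.8% and 37.7%, means weighted by length 9.81%, 82.6% and 59.8%, medians over fragments 30.6%, 61.7% and 40.4%, and odd-numbered fragments 27.1%, 65.1% and 43.2%. Without fragments at the most frequent value, 46.5% lay in runs of 2 or more. The share in the Lap2b-labelled list alone became 6.51% with 5 kb bins, 8.32% with 20 kb bins, 6.97% at 0.75 and 7.06% with medians over fragments. That in the Lamin A-labelled list alone became 1.11% with 5 kb bins, 0.14% with 20 kb bins, 0.73% at 0.75, 0.11% at 1.5, 0.26% with means weighted by length, 0.63% with medians over fragments and 0.78% with summed reads. The mean of the Lamin A-labelled profile turned negative with 20 kb bins (-0.14), at 1.5 (-0.19), with means weighted by length (-0.26) and with summed reads (-0.12). The cause of these moves was not tested. Of the set, 73.9% was also chosen by medians over fragments (68.6% of that set), 70.4% by means weighted by length (63.6%) and 81.9% by summed reads (48.7%).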

Other observations

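Chromosome X, outside the rule, held few bins of this kind. Of its 16160 tested bins, 87 (0.54%) were higher in the Lamin A-labelled profile by 1 or more and 1782 (11.03%) were higher in the Lap2b-labelled profile by as much. The median difference over its bins was -0.31. Of the 87 bins, 61 lay in neither list, 18 in both lists, 8 in the Lap2b-labelled list alone and 0 in the Lamin A-labelled list alone.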
